A study of Saccharomyces cerevisiae with 6 samples.

Results

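The genes described here carry sulfate from the medium into the budding yeast cell and reduce it to sulfide. They are the sulfate permease genes SUL1 and SUL2, the activation and reduction genes MET3, MET14, MET16, MET5 and MET10, the nucleotidase gene MET22, and the siroheme genes MET1 and MET8. They were selected by gene symbol, 10 of the 5656 genes with a probe set to which the array's annotation gives their symbol alone. Each was represented by 1 probe set, a group of short oligonucleotides that together report 1 transcript, and the array held 9275 probe sets besides its controls. Total RNA had been taken from 3 cultures of strain Y118, which carries histone H2B with a lysine replaced by arginine (H2B K123R), and from 3 cultures of the wild-type strain Y117 (WT). All cultures were started from early stationary phase in 150 ml of rich medium (YPD) at an optical density of 0.3 and shaken at 30 degrees for 7 hours, when they stood at 2. Each RNA was labelled with biotin and hybridised to 1 Affymetrix S98 array. The labels do not say whether the triplicates began from separate starter cultures, so p-values weigh group differences only against the variation among these cultures. The labels also give no further genotype, so any other difference between Y118 and Y117 cannot be told apart from the substitution.

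The lysine in question is the residue of yeast H2B to which a single ubiquitin is attached during transcription, and an arginine in its place cannot carry it. Yeast makes cysteine and methionine from inorganic sulfate. Sulfate enters through the permeases Sul1 and Sul2, is activated by ATP sulfurylase (Met3) and a kinase (Met14) to phosphoadenylyl sulfate, and is reduced to sulfite by Met16 with electrons from thioredoxin. Met22 clears the nucleotide that this reaction leaves behind. Sulfite reductase, built of Met5 and Met10, then makes sulfide and needs siroheme, a cofactor made by Met1 and Met8. Met17 joins the sulfide to O-acetylhomoserine, the product of Met2, to give homocysteine. The activator Met4, with Cbf1, Met28, Met31 and Met32, drives these genes when sulfur amino acids are short, and the ubiquitin ligase subunit Met30 holds Met4 in check when they are plentiful.

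Across the series, median signals lay between 130.5 and 140.2 per array, and log2 signals of arrays of a group correlated at 0.958 to 0.991 for H2B K123R and 0.992 to 0.995 for WT. The array of H2B K123R replicate 1 stood apart: its correlations with the others of its group were 0.958 and 0.969, and the actin control read 1.98 times brighter at the 3′ end than at the 5′ end, a factor of 1.40 to 1.59 on the remaining arrays. The H2B gene HTB1 read 4392, 4209 and 5078 in H2B K123R, against 5423, 6046 and 6039 in WT, a difference that did not pass (limma adjusted p = 0.0739), and its probe set cannot show a point mutation. The second H2B gene, HTB2, read 2.53 to 6.99 in H2B K123R and 3.82 to 11.3 in WT. Mouse control probe sets, which have no target in yeast, read 0.922 to 18.3, so neither strain gave an HTB2 signal above these controls.

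Transcripts of 9 of the 10 genes rose in H2B K123R and none fell. MET8 was the exception. The largest rises were those of MET16 (2.53-fold), MET14 (2.51-fold), MET5 (2.40-fold) and MET10 (2.37-fold). MET3 and SUL2 rose 1.95-fold and 1.93-fold, MET1 1.72-fold and MET22 1.60-fold, while SUL1 rose at signals close to background. In limma's test, 4.22% of all non-control probe sets passed upward and 2.47% downward at an adjusted p under 0.05, against 9 and 0 of these 10. The median log2 difference of the 10 genes was 0.96, against 0.02 over all probe sets. For the same 9 genes every H2B K123R array lay above every WT array, which held in that direction for 19.0% of all probe sets. Folds are powers of 2 of differences in log2(signal + 16), so those of dim genes are understated.

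**Figure D1:**
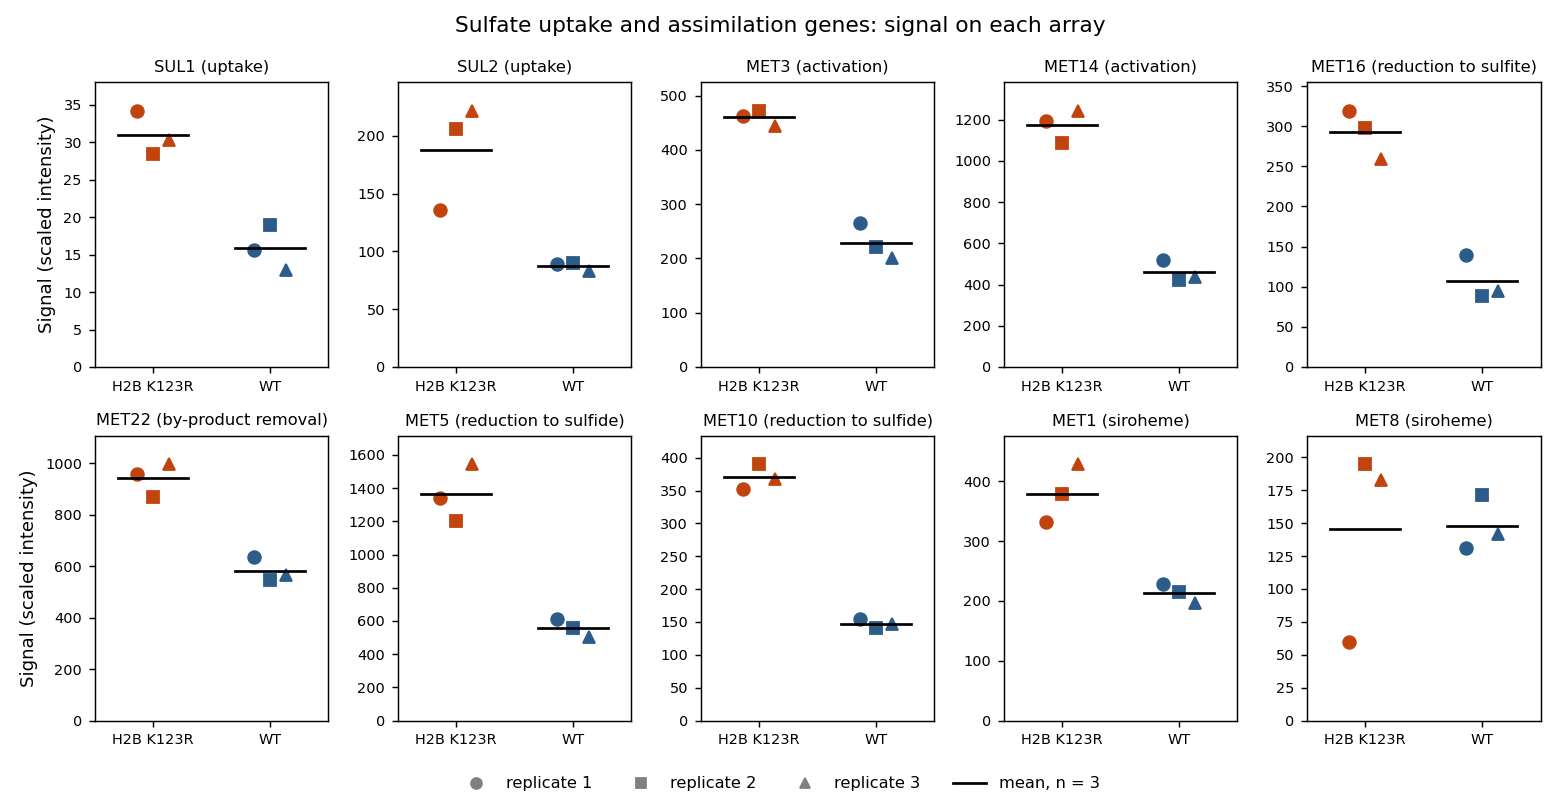
Signal (scaled intensity, linear axes from 0, a scale of its own in each panel) of the 10 genes on each array, with H2B K123R on the left and WT on the right of each panel. Symbols mark the replicate and the black line the mean (n = 3). In 9 panels the groups do not overlap, and in the MET8 panel H2B K123R replicate 1 lies at 60.0, below all other arrays.

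Both high-affinity sulfate permease genes rose. SUL2 (YLR092W) read 136, 206 and 222 in H2B K123R replicates 1 to 3, against 89.1, 89.9 and 83.1 in WT. The mutant arrays spread widely, with replicate 1 lowest, while the WT arrays lay close together and below all of them. The log2 difference of SUL2 was 0.95 ± 0.19 (SE; here and for all genes n = 3 per group; limma adjusted p = 0.0368), and without H2B K123R replicate 1 it was 1.15 (adjusted p = 0.00557). SUL1 (YBR294W) read 34.2, 28.4 and 30.3 in H2B K123R, against 15.6, 19.0 and 12.9 in WT. The groups did not overlap, but the WT signals reach into the range of the mouse controls, so no fold is given for SUL1. The size of its log2 difference was set by the pseudocount: 0.56 ± 0.12 with 16 (adjusted p = 0.0422), 0.94 with 1 (adjusted p = 0.0635) and 0.25 with 64. Without H2B K123R replicate 2 or 3, or without any WT replicate, neither permease gene passed, with adjusted p of 0.0600 to 0.175 for SUL1 and 0.0714 to 0.159 for SUL2, and SUL2 did not pass after cyclic loess normalization (adjusted p = 0.0665).

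Both activation genes, which act next to each other in the pathway, rose. MET3 (YJR010W), which encodes ATP sulfurylase, the enzyme that joins sulfate to an adenylyl group, read 463, 472 and 445 in H2B K123R, against 265, 221 and 201 in WT. The mutant arrays lay within a narrow band, well above the brightest WT array. For MET3 the log2 difference was 0.97 ± 0.12 (limma adjusted p = 0.0133), and it did not pass without H2B K123R replicate 3 (adjusted p = 0.0572), WT replicate 2 (0.0794) or WT replicate 3 (0.0769). MET14 (YKL001C), the gene of adenylylsulfate kinase, which adds a further phosphate group, read 1196, 1088 and 1243 in H2B K123R, against 519, 422 and 438 in WT. Each mutant signal was above the brightest WT signal by more than the whole range within either group. MET14 had a log2 difference of 1.33 ± 0.11 (adjusted p = 0.00393), and it passed with any single array left out (adjusted p = 0.00534 to 0.0441).

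MET16 and MET22, which make and remove the same nucleotide by-product, both rose. MET16 (YPR167C) encodes the reductase that releases sulfite, and it read 319, 298 and 259 in H2B K123R, against 140, 88.3 and 94.8 in WT. The groups were far apart although WT replicate 1 stood above the other WT arrays. The log2 difference was 1.34 ± 0.18 (limma adjusted p = 0.0164), and it did not pass without H2B K123R replicate 3 (adjusted p = 0.0580), WT replicate 2 (0.0829) or WT replicate 3 (0.0974). MET22 (YOL064C) encodes the bisphosphate nucleotidase, known also as a target of lithium and sodium, and it read 958, 870 and 995 in H2B K123R, against 636, 547 and 564 in WT. All mutant arrays were above all WT arrays, with the smaller of the rises in this part of the pathway. MET22 had a log2 difference of 0.68 ± 0.09 (adjusted p = 0.0166), and it passed without H2B K123R replicate 1 or 2 but not without replicate 3 (adjusted p = 0.0680) or without WT replicate 1, 2 or 3 (0.0565, 0.0911 and 0.103).

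Both subunit genes of sulfite reductase rose. MET5 (YJR137C), the beta subunit gene, read 1342, 1204 and 1543 in H2B K123R, against 611, 557 and 506 in WT. Even the lowest mutant array was far above the brightest WT array. For MET5 the log2 difference was 1.26 ± 0.12 (limma adjusted p = 0.00638), and the test failed only without WT replicate 3 among the fits that left out 1 array (adjusted p = 0.0527). MET10 (YFR030W), the alpha subunit gene, read 352, 390 and 368 in H2B K123R, against 155, 140 and 147 in WT. The replicates of each group lay close together and the groups were well separated. MET10 had a log2 difference of 1.24 ± 0.10 (adjusted p = 0.00393), and it passed with any single array left out (adjusted p = 0.00420 to 0.0441).

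Of the siroheme genes, MET1 rose and MET8 did not pass. MET1 (YKR069W), which encodes the methyltransferase that begins siroheme synthesis from uroporphyrinogen, read 332, 379 and 428 in H2B K123R, against 229, 214 and 196 in WT. The groups did not overlap. The log2 difference was 0.78 ± 0.12 (limma adjusted p = 0.0216), and it passed without H2B K123R replicate 1 or 2 but not without replicate 3 (adjusted p = 0.0753) or without WT replicate 1, 2 or 3 (0.0860, 0.104 and 0.118). MET8 (YBR213W), whose product carries out the final oxidation and iron insertion, read 60.0, 195 and 183 in H2B K123R, against 131, 171 and 142 in WT. Replicate 1 of H2B K123R was the lowest of all 6 arrays and the other mutant arrays were the highest. The log2 difference was -0.15 ± 0.39 (adjusted p = 0.851), and its 95% confidence interval, -1.08 to 0.79, includes a rise as large as that of MET1. Without H2B K123R replicate 1 the difference was 0.33 ± 0.13 (adjusted p = 0.171), with H2B K123R arrays at 195 and 183. On that array 212 of 4775 probe sets that read above 100 on the other 5 arrays (4.44%) had under 50% of the lower signal of the other mutant arrays, MET8 among them and no other of the 10 genes. This count was made after the MET8 values were seen, and the part of the array in the MET8 result was not tested.

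**Figure D2:**
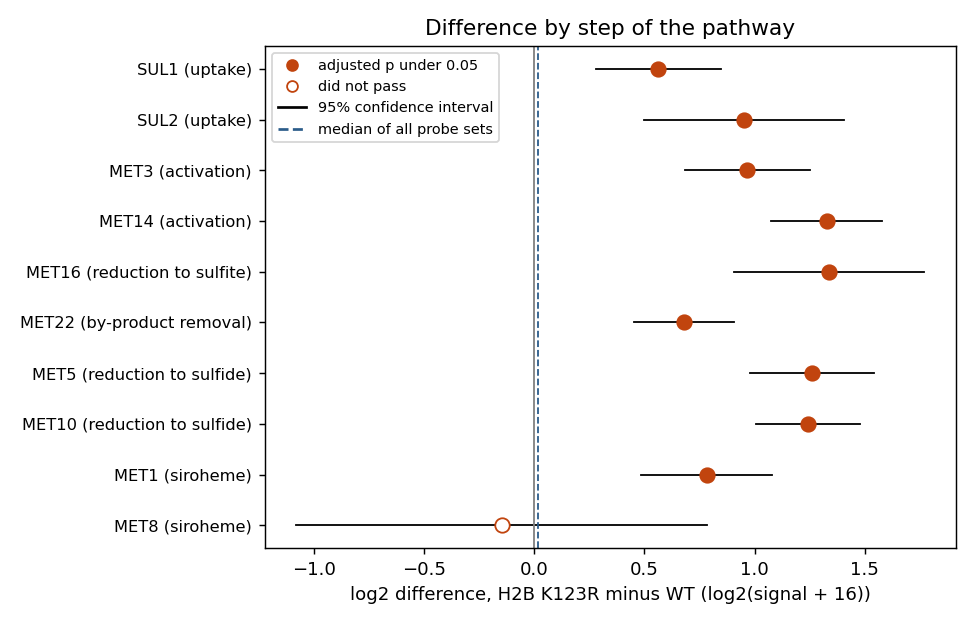
Log2 difference, H2B K123R minus WT, of the 10 genes in pathway order from uptake (top) to siroheme (bottom), with 95% confidence intervals as lines. Filled points passed at an adjusted p under 0.05. Intervals of 9 genes lie above 0, and that of MET8 runs from -1.08 to 0.79.

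Whether members of related function changed by unequal amounts was asked in 5 pairs, from the difference in log2 signal between both genes on each array. With 3 arrays against 3 the exact two-sided permutation test cannot go below p = 0.1, so no pair could pass. The log2 difference between H2B K123R and WT was larger by 0.66 for MET16 than for MET22 and by 0.93 for MET1 than for MET8, and MET3 minus MET14 gave -0.36. In these 3 pairs the H2B K123R arrays did not overlap with the WT arrays (exact permutation p = 0.1, the smallest possible, adjusted p = 0.167 over the 5 pairs). The size for MET1 against MET8 rested in part on the low MET8 signal of H2B K123R replicate 1. It was 0.54 without that array, and 0.84 to 1.19 without any other single array. For SUL1 against SUL2 the groups overlapped (exact permutation p = 0.4, adjusted p = 0.5), and no size is given because it depends on the pseudocount. For MET5 against MET10 it was 0.02, with MET5 minus MET10 at 1.59 to 2.02 on the H2B K123R arrays and 1.68 to 1.88 on the WT arrays (exact permutation p = 0.8, adjusted p = 0.8). That overlap does not show that both subunit genes changed alike.

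Array by array, the 10 genes stood a median of 0.84, 1.05 and 1.07 above their WT means on the log2 scale in H2B K123R replicates 1, 2 and 3. The same medians over all probe sets were 0.09, 0.00169 and -0.000942. In H2B K123R replicate 1, 9 of the 10 genes were above every WT array, and in replicates 2 and 3 all 10 were. WT replicate 1 was the highest WT array for 7 of the 10 genes. Ranked among all 9275 differences from the highest down, MET16 was number 24, MET14 26, MET5 29 and MET10 31. MET3, SUL2 and MET1 followed at 84, 93 and 165, then MET22 at 252, while MET8 stood at 6681. No rank is given for SUL1.

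**Figure D3:**
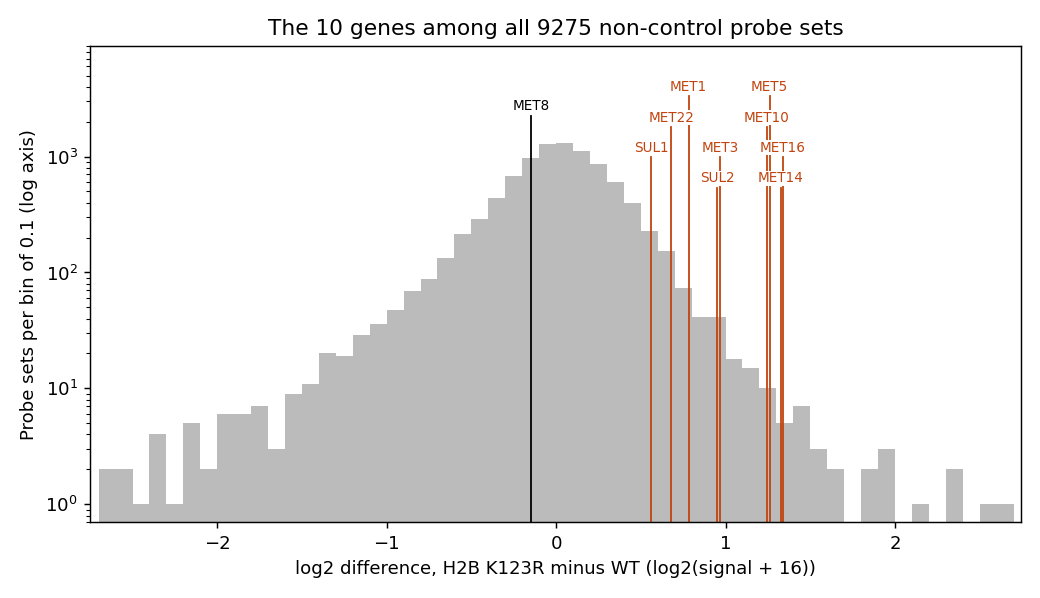
Number of probe sets (log axis) by log2 difference, H2B K123R minus WT, in bins of 0.1 over all 9275 non-control probe sets. Lines mark the 10 genes, with MET8 in black because it did not pass. MET5, MET10, MET14 and MET16 lie between 1.24 and 1.34 in the upper tail.

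How many of the genes passed depended on which arrays were used. All 9 genes passed without H2B K123R replicate 1 and 7 without replicate 2, both permease genes being lost. Without H2B K123R replicate 3, MET14, MET5 and MET10 passed, and the same 3 did without WT replicate 2. Without WT replicate 1 these 3, MET3 and MET16 passed, and without WT replicate 3 MET14 and MET10 did. In these last 4 fits 19 to 43 of all probe sets passed upward, against 391 with all arrays. The differences of the 9 genes stayed positive in every fit with 1 array left out. Leaving SUL1 aside, their lowest values there were 0.83 for SUL2, 0.88 for MET3, 1.27 for MET14, 1.23 for MET16, 0.64 for MET22, 1.17 for MET5, 1.21 for MET10 and 0.69 for MET1.

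**Figure D4:**
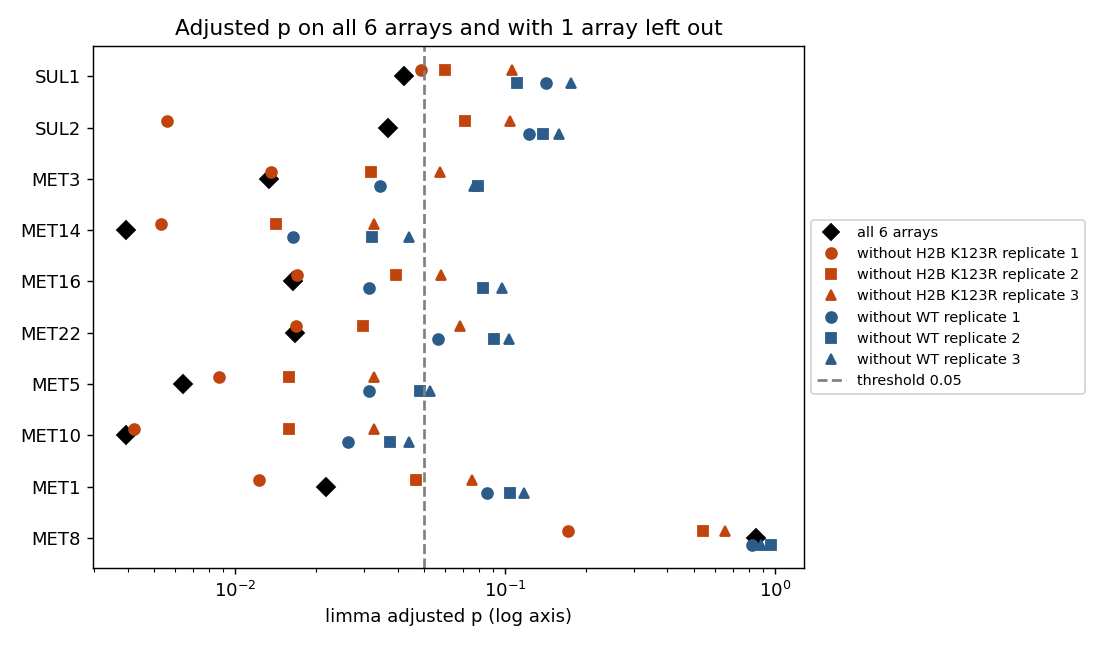
Adjusted p (log axis) of limma's test for the 10 genes on all 6 arrays (black diamonds) and with 1 array left out, in orange for an H2B K123R array and in blue for a WT array. The dashed line is the threshold of 0.05. MET14 and MET10 stay left of it throughout, and MET8 stays right of it.

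Downstream and around the pathway, 3 of 33 other sulfur genes rose and none fell in limma's test, while 4.22% of all probe sets passed upward and 2.47% downward. Before adjustment, p was under 0.05 for 8 of the 33 genes upward and 3 downward. The like count over all 9275 probe sets was 2307, both directions together. The median log2 difference of the 33 genes was 0.06, against 0.02 over all probe sets. MET2, the homoserine acetyltransferase gene that supplies the carbon partner of sulfide, read 234, 256 and 298 in H2B K123R, against 85.7, 86.8 and 88.5 in WT. The groups were far apart, with a log2 difference of 1.43 ± 0.12 (adjusted p = 0.00540, and 0.0527 without WT replicate 3). STR3, the cystathionine beta-lyase gene, read 232, 190 and 217 in H2B K123R, against 105, 86.8 and 82.7 in WT, also without overlap. Its log2 difference was 1.09 ± 0.14 (adjusted p = 0.0144), and it did not pass without H2B K123R replicate 3 (adjusted p = 0.0617) or without WT replicate 1, 2 or 3 (0.0503, 0.0831 and 0.0923).

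MET17, the gene of the enzyme that takes up the sulfide itself, read 1.75, 8.25 and 4.42 in H2B K123R, against 11.6, 4.49 and 11.1 in WT. None of these signals exceeds the mouse controls, so no MET17 transcript was measured above these controls in either strain, and no fold is given. MET17 is also known as MET15, a gene deleted in some laboratory strains, and the labels do not give its allele here. The methionine synthase gene MET6 read 755, 914 and 944 in H2B K123R, against 855, 838 and 890 in WT, with overlap and no call (limma adjusted p = 0.966).

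Of the 6 regulator genes, MET28 rose and 5 did not pass, where 4.22% of all probe sets passed upward and 2.47% downward. MET28, the gene of a cofactor that binds DNA with Met4, read 109, 119 and 110 in H2B K123R, against 62.3, 58.0 and 63.5 in WT. The groups did not overlap, and the log2 difference was 0.74 ± 0.12 (limma adjusted p = 0.0216). It did not pass without H2B K123R replicate 3 (adjusted p = 0.0764) or without WT replicate 1, 2 or 3 (0.0974, 0.115 and 0.118). MET4 read 281, 233 and 236 in H2B K123R, against 194, 196 and 185 in WT (adjusted p = 0.117). MET32 read 42.5, 37.9 and 32.0 in H2B K123R, against 26.7, 22.3 and 19.6 in WT (adjusted p = 0.0917). Both were higher on all mutant arrays, as were 19.0% of all probe sets, without passing. CBF1 lay the other way, at 169, 209 and 254 in H2B K123R against 352, 307 and 281 in WT, without overlap and without a call (log2 difference -0.55, adjusted p = 0.1002). MET31 averaged 210.2 in H2B K123R and 208.8 in WT (adjusted p = 0.988), and MET30 averaged 184.8 in H2B K123R and 198.1 in WT (adjusted p = 0.633).

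No other gene of the list passed on its brightest probe set. STR2, the cystathionine gamma-synthase gene, the sulfite exporter gene SSU1 and the methionine permease gene MUP3 had log2 differences of 0.59, 0.48 and 0.52 without overlap between the groups (limma adjusted p = 0.0671, 0.0654 and 0.0562). The S-adenosylmethionine synthetase genes SAM1 and SAM2 and the S-adenosylhomocysteine hydrolase gene SAH1 lay below WT on all mutant arrays, with log2 differences of -0.23, -0.13 and -0.26 (adjusted p = 0.0803, 0.346 and 0.111). Every mutant array lay above every WT array for 10 of the 33 genes, and for 19.0% of all probe sets. JLP1 is among the 10, at 28.5, 4.73 and 5.12 in H2B K123R against 1.67, 2.08 and 2.76 in WT. All but the first of these signals lie within the range of the mouse controls. The reverse held for 5 of the 33, and its share over all probe sets is not given here. CYS3, the cystathionine gamma-lyase gene, read 4008, 6804 and 6474 in H2B K123R, against 5951, 5542 and 5294 in WT, with overlap. The 5 probe sets of SAM3, an S-adenosylmethionine permease gene, disagreed. The brightest did not pass (adjusted p = 0.475), while a dim one passed downward, with 2.25 to 6.34 in H2B K123R, within the range of the mouse controls, and 16.4 to 29.0 in WT (adjusted p = 0.0209).

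**Figure D5:**
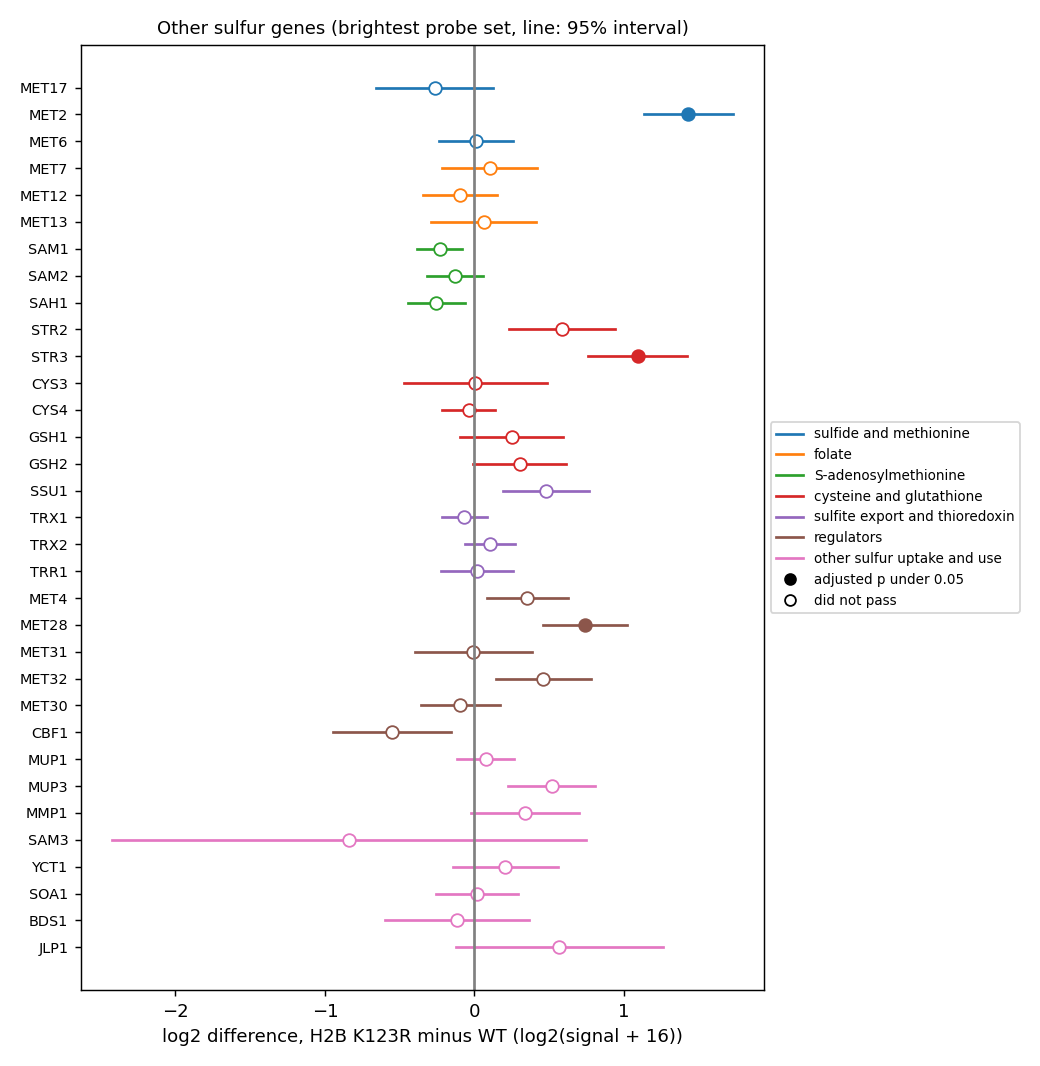
Log2 difference, H2B K123R minus WT, of the 33 other sulfur genes (brightest probe set), coloured by role, with 95% confidence intervals as lines. Filled points passed at an adjusted p under 0.05. Only MET2, STR3 and MET28 are filled.

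The genes on either side of the 9 genes that rose were taken from the order of the R64 gene table. Of 17 measured neighbours none passed limma's test in either direction (unadjusted p under 0.05 in 2, and in 2307 of all 9275 probe sets). With 4.22% of all probe sets passing upward and 2.47% downward, a count of 0 in so few genes is near the background. Their median log2 difference was -0.01, with a range of -0.74 to 0.37. The highest was CRT10 beside MET22, at a mean of 277.3 in H2B K123R and 210.8 in WT (adjusted p = 0.107), and VPS1 beside MET14 averaged 437.2 in H2B K123R and 437.6 in WT.

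The profile of the 10 genes was described as the mean of their standardized log2 signals over the 6 arrays, which fall into 2 groups, so these correlations follow the difference between the groups as well as the spread within them, and carry no test. Each of the 9 genes that rose had a Pearson correlation of 0.903 (SUL1) to 0.993 (MET1) with the profile of the other members, and MET8 had -0.124. Among 3801 other genes above the median level, the most alike were CCP1 (cytochrome c peroxidase, 0.996), TFS1 (an inhibitor of carboxypeptidase Y, 0.995), FPR4 (a nuclear proline isomerase, 0.995), SNR44 (a small nucleolar RNA, 0.994) and SBA1 (a cochaperone of Hsp90, 0.993). None of the 5 is in the list of other sulfur genes. Each was lower than MET14, MET16, MET5 and MET10 in its log2 difference, with values of 0.55, 0.62, 0.39, 0.91 and 0.51.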

How the data were processed

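The authors deposited 1 intensity per probe set and array (Affymetrix S98, linear scale), already scaled: the mean after trimming 2% at each end was 500.4 to 500.5 on every array. The sources used here name neither the summarization software nor the genome build behind the array, so coordinates were left out. Signals were used as log2(signal + 16), without further normalization. H2B K123R was set against wild type with limma 3.58.1 in R 4.3.3 (two-sided, variance trend in the empirical Bayes step, Benjamini-Hochberg adjustment over 9275 non-control probe sets, threshold 0.05). The procedure was tested on simulated data. Symbols came from the platform annotation and were checked by gene identifier against the R64 gene table. The annotation gave 6504 probe sets 1 symbol, 328 several and 2443 none, and probe sets with several were not used to name genes. A gene with several probe sets was counted by the brightest.

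The 10 members, the list of 33 other sulfur genes and the 5 pairs of members were chosen by function, with earlier results of these data known. Named genes were all members, the other sulfur genes that passed, MET17, the sulfur regulators, neighbouring genes of members that passed, and the 5 genes with the profile most like that of the members. MET6, SAM1, SAM2, SAH1, STR2, SSU1, MUP3, CYS3, SAM3 and JLP1 were named after their values were seen. Pairs were compared by exact permutation tests over arrays (scipy 1.17.1). The alternatives were other pseudocounts, quantile and cyclic loess normalization, a filter on dim probe sets, the mean of a gene's probe sets, no variance trend, array weights, a block on the replicate number, and each array left out in turn.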

Additional observations from a re-analysis of the deposited data

How the results depend on the processing

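Of the 10 genes, 7 to 9 passed upward under the alternatives that kept all arrays without a block, and none passed downward. The genes lost were SUL1 with a pseudocount of 1, SUL2 after cyclic loess, and SUL1 and SUL2 where dim probe sets were left out, since neither was then tested. With each array left out in turn, 2 to 9 passed and the median difference was 0.90 to 1.06; these fits hold fewer samples. The median was 0.96 with all arrays, 0.78 with a pseudocount of 64, 0.86 after cyclic loess, 1.10 above the median level and 1.08 with array weights. Of the other sulfur genes, 0 to 4 passed upward with 1 array left out. Upward and downward calls among them were 4 and 1 after quantile normalization, 5 and 1 after cyclic loess and 9 and 2 with array weights, against 3 and 0; the cause was not tested. MET8 turned positive with array weights (0.24) and without H2B K123R replicate 1 (0.33); with 1 array left out it lay between -0.41 and 0.33. The difference between MET5 and MET10 was -0.041 with a pseudocount of 1, 0.16 with one of 64 and -0.077 to 0.14 with 1 array left out.

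With a replicate block, 6 of the 10 genes passed, and SUL1 (adjusted p = 0.0830), SUL2 (0.0643) and MET1 (0.0603) did not; of the other sulfur genes MET28 lost its call (0.0606) while MET2 and STR3 passed. The deviations of same-numbered arrays correlated at 0.318, 0.382 and 0.0527, and each array correlated best with its own number, but the labels name no shared batch, so the numbers were not taken as pairs. With the block, 193 probe sets passed upward and 114 downward, against 391 and 229. These counts were 464 and 288 after quantile normalization, 505 and 418 after cyclic loess and 1605 and 1280 with array weights. They were 541 and 482 without H2B K123R replicate 1, and 19 and 3 without WT replicate 3. The counts of calls in both directions thus varied with the setting and with the array left out. Signals near the mouse controls, as for SUL1, limit what the arrays resolve.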
